A study of Mus musculus with 6 samples.

Results

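The BCL2 family holds the genes that decide whether the outer mitochondrial membrane stays sealed. Of 24105 named genes on the array, the 10 described here were picked by name, with earlier results of these data known. They are the survival genes Bcl2, Bcl2l1 and Mcl1, the BH3-only genes Bcl2l11, Bbc3, Bmf, Pmaip1 and Bad, and the effector genes Bax and Bak1. Every non-control probe annotated with one of these names was taken, which gave 14 probes of 55681. Each probe was printed as 1 spot, and 4 genes (Bcl2l1, Mcl1, Bcl2l11 and Bad) had more than 1 probe. All 14 were among the 20168 probes bright enough to be tested, so none dropped out through the filter on low signal.

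RNA came from 1676 cells, a mouse pre-B cell line grown out of bone marrow that lacks the adaptor proteins SLP-65 and LAT (genotype SLP-65-/- LAT-/-). All cells were kept in an excess of the growth factor IL-7 and were selected with puromycin after retroviral transduction. There were 3 groups of 2 arrays: an empty control vector, a vector for miR-26a (hsa-miR-26a-2), and a sponge, an mRNA with repeated binding sites that sequesters miR-26 family members. The 2 arrays of a group came from separate experiments with separately generated cells, so there were 2 arrays per group throughout, all from a single cell line and with IL-7 present. A scrambled sponge was not analysed here. The mature miRNA level of these cells was not analysed here either.

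BCL2, BCL-XL (from Bcl2l1) and MCL1 bind and hold back their pro-apoptotic relatives. BH3-only proteins such as BIM (from Bcl2l11), PUMA (from Bbc3), BMF, NOXA (from Pmaip1) and BAD occupy the survival proteins, and some also engage the effectors BAX and BAK directly. Activated BAX and BAK form pores through which cytochrome c leaves the mitochondrion and starts the caspase cascade. In developing B cells IL-7 is known as a survival cytokine that acts in part through this family, and BIM is well known for its part in lymphocyte death.

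The overexpressed miRNA and its relative share the seed, bases 2 to 8, which pairs with target mRNAs. The mature mouse sequences from RefSeq are shown because the search below uses this seed, which is in capitals. They lie at chr9:119031811-119031832 and, for the second copy, chr10:126995543-126995564 (miR-26a-5p) and at chr1:74394324-74394344 (miR-26b-5p) of GRCm38.p6, all on the plus strand.
mmu-miR-26a-5p: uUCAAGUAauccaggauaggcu
mmu-miR-26b-5p: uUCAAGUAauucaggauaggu
The probe sequences of the array were searched on the sense strand for the letters complementary to this seed, since a probe is a 60-base piece of the transcript. TACTTGA occurred in 0.431% of all probes, ACTTGAA in 0.7% and ACTTGA, which lies inside both, in 1.96%, and 0 of the 14 BCL2 family probes held any of them. The search covers the probe alone. The remainder of each transcript, 3′-UTR included, was not analysed here.

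Between 28823 and 29800 of 59305 spots were well above background on each array, and none was saturated. All 9 pre-B markers reported (among them Cd79a, Vpreb1 and Il7r) were well above background on all 6 arrays, with summed signals of 637200 to 696000. Erythroid and stromal markers did not pass the limit on low signal, with Col1a1, Col3a1 and Pdgfrb not well above background on any array. Of the 8 myeloid markers, 5 were well above background on every array, with summed signals of 56090 and 67970 in control, 58620 and 64590 with miR-26a and 54680 and 72990 with the sponge. Most of each sum came from Csf3r, which read 52210 and 63010 in control. Lyz2 and Mpo did not pass the limit on low signal, and Cd14 was not well above background on any array. Of the 6 T cell markers, 3 were well above background on every array, with sums of 1509 and 1458, 1325 and 1434, and 1197 and 1294, whereas Cd3g and Cd8a were not on any. Against control, miR-26a arrays had lower Cd5 (log2 change -1.98) and 1 lower Itgam probe (-0.82), and higher Cd68 (0.33), each with a limma adjusted p under 0.05. Cd5 read 28.16 and 16.62 with miR-26a, under the signal limit of 50. A brighter Itgam probe (A_55_P1977934) had a change of 0.06 (limma adjusted p = 0.744). The 2 probes of the pre-B marker Pax5 had changes of -0.27 and -0.23 with miR-26a, which did not pass the test (adjusted p = 0.0744 and 0.168), and A_51_P122855 was lower with miR-26a than with the sponge (-0.36, adjusted p = 0.028). The part of these markers in the results below was not tested, and in bulk RNA fewer cells expressing a gene and less of its RNA per cell cannot be told apart.

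The first comparison asked which members changed when miR-26a was overexpressed. Bmf, Bak1 and Bbc3, which are 2 BH3-only genes and 1 effector gene, were lower with miR-26a, and no member was higher. They are on the death side of the family, as are all of the 10 members except the 3 survival genes. A probe was called where limma's p, adjusted over all probes tested, was under 0.05, and changes are given on the log2 scale of quantile-normalized signal. Lower calls were made for 3 of the 14 probes, whereas 5.14% of all probes tested were called lower. Higher calls were made for 0 of 14, beside 4.5% of all probes. The median change of the 14 probes was -0.09, compared with 0.01 over all probes. Since the members were chosen with earlier results known, the difference from all probes was not tested.

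**Figure D1:**
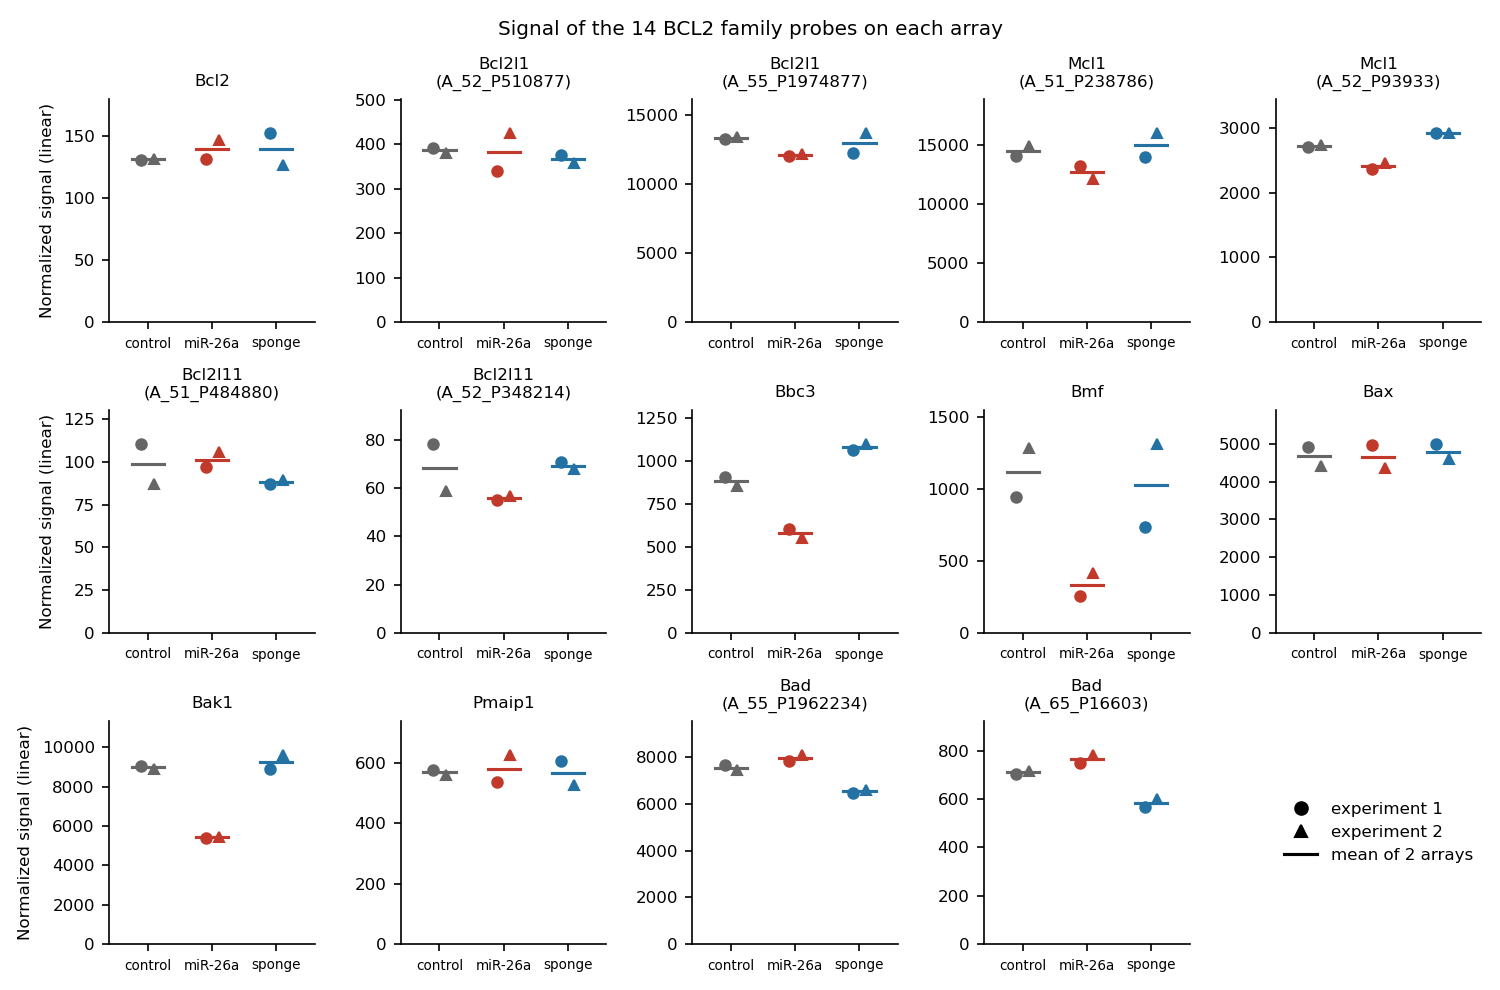
Normalized linear signal of each of the 14 probes (y axis from 0, its own scale in each panel, so heights are not comparable between probes) on the 2 control, 2 miR-26a and 2 sponge arrays; circles are experiment 1, triangles experiment 2, bars the mean of 2 arrays. Both miR-26a arrays lie below the 4 others for Bmf, Bbc3 and Bak1. They also do for both Mcl1 probes, Bcl2l1 A_55_P1974877 and Bcl2l11 A_52_P348214, which were not called against control. Both sponge arrays lie below the 4 others for the 2 Bad probes. How many of all probes show such a separation from the 4 others was not counted.

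Among the BH3-only genes the difference was widest for Bmf, whose product is known to be held at the cytoskeleton and to be released by stress. Its probe (A_55_P2029106, transcript NM_138313, mm9 chr2:118354496-118354555, minus strand) gave signals of 944.5 and 1285 in control and of 255.9 and 413 with miR-26a. Both miR-26a arrays were below every control and sponge array. The log2 change was -1.76 (SE 0.11, 95% interval -2.03 to -1.50, limma adjusted p = 0.00317), so that 29.5% of the control signal was left. It was -1.88 in experiment 1 and -1.64 in experiment 2, and 0.114% of all probes tested had a lower change.

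Bmf also stood apart in how it varied between experiments. In each of the 3 groups the array of experiment 2 was brighter than that of experiment 1, by 0.44 (control), 0.69 (miR-26a) and 0.83 (sponge) on the log2 scale. The mean of these, 0.66, exceeded that of 99.5% of all probes tested, whereas the 13 other member probes had means between -0.16 and 0.07. The difference with miR-26a was larger than this shift, but the call needed the experiment in the model: without it the adjusted p was 0.0825.

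Bbc3 encodes PUMA, a BH3-only protein known as a p53 target. Its probe (A_51_P248122, NM_133234, mm9 chr7:16903403-16903462, plus strand) read 906.2 and 856.7 in control and 604.2 and 554 with miR-26a. The groups did not overlap, and the 2 experiments gave changes of -0.58 and -0.63. The fitted log2 change was -0.61 (SE 0.08, 95% interval -0.79 to -0.42, limma adjusted p = 0.012), or 65.7% of the control signal.

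Bak1, 1 of the 2 pore-forming effector genes, was measured by a probe at mm9 chr17:27156807-27156866, minus strand (A_55_P2013113, NM_007523). Signals were 9065 and 8914 in control and 5411 and 5448 with miR-26a, the tightest replicates of the 3 called genes. The log2 change was -0.73 (SE 0.07, 95% interval -0.91 to -0.55, limma adjusted p = 0.0075), with -0.74 and -0.71 in the 2 experiments, which left 60.4% of the control signal. Bax, the other effector gene, gave 4911 and 4424 in control against 4970 and 4347 with miR-26a (probe A_55_P2137406, NM_007527, mm9 chr7:52717122-52717181, minus strand). Its groups overlapped, and its log2 change was -0.004 (95% interval -0.17 to 0.16).

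The calls for Bbc3 and Bak1 were lost when either control array was left out, while the changes stayed of similar size. Without control replicate 1 the changes were -0.59 and -0.68 (adjusted p = 0.116 and 0.0807), and without control replicate 2 they were -0.63 and -0.77 (adjusted p = 0.103 and 0.0697). In these fits the lone control array is assumed to vary like the other groups, and the calls over all probes dropped from 1944 to 104 and 133. The adjusted p of Bmf stayed under the threshold in all 6 fits with 1 array left out. All 3 calls were lost with no filter on low signal (adjusted p 0.232 to 0.24), by an unmoderated unpaired test of the 2 groups (0.22 to 0.376) and by a test of the 2 log ratios (0.388 to 0.42).

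**Figure D2:**
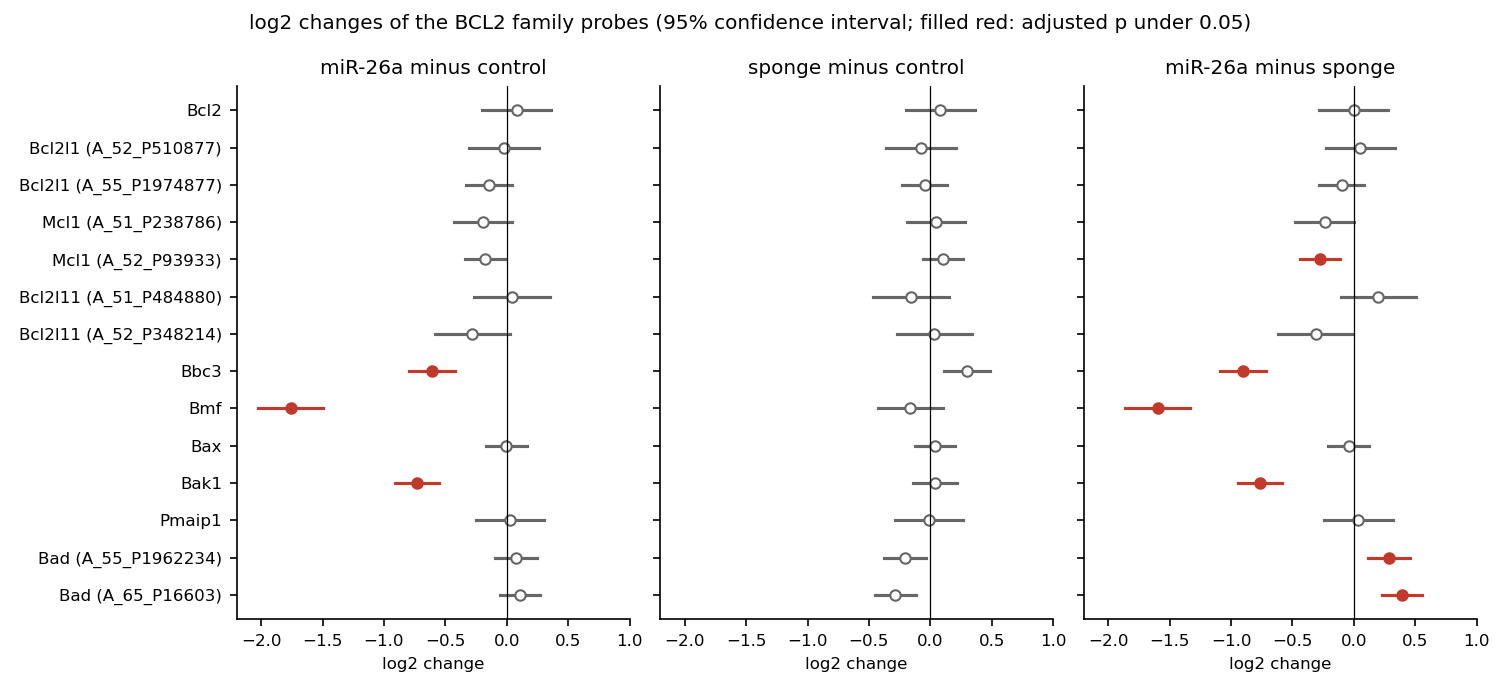
log2 change (x axis) of each of the 14 probes for miR-26a minus control, sponge minus control and miR-26a minus sponge; points are limma estimates from 6 arrays, lines 95% confidence intervals, and filled red points have an adjusted p under 0.05. With miR-26a, Bmf (-1.76), Bak1 (-0.73) and Bbc3 (-0.61) lie left of 0, and in the sponge panel no point is filled.

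The remaining BH3-only genes were not called with miR-26a. For Bcl2l11, which encodes BIM, the estimates of the 2 probes pointed in opposite directions. The probe shared by 3 RefSeq variants (A_51_P484880, mm9 chr2:127972893-127983988, plus strand, a span wider than the probe) gave 110.6 and 87.18 in control and 97.06 and 105.6 with miR-26a, a log2 change of 0.04 (95% interval -0.26 to 0.35). The other probe (A_52_P348214, known by an Ensembl transcript, mm9 chr2:127954736-127955417, plus strand) gave 78.26 and 58.61 against 54.85 and 56.8, a change of -0.28 (95% interval -0.58 to 0.03, limma adjusted p = 0.217). On that probe the lower control array was close to the miR-26a arrays, and the change was -0.51 in experiment 1 but -0.05 in experiment 2.

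Pmaip1, which encodes NOXA, read 577.3 and 562.1 in control and 536.1 and 627.2 with miR-26a (probe A_51_P477121). The miR-26a arrays lay on either side of the control arrays, with an interval of -0.25 to 0.30 around 0.03. Bad encodes a BH3-only protein known to be inactivated by phosphorylation downstream of AKT. Its 2 probes changed by 0.08 (A_55_P1962234, 95% interval -0.09 to 0.25) and 0.11 (A_65_P16603, 95% interval -0.06 to 0.27), and neither was called.

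None of the 3 survival genes was called against control. For Mcl1, a short-lived protein on which lymphoid progenitors are known to depend, both probes were lower on both miR-26a arrays without passing the threshold. Probe A_52_P93933 (NM_008562, mm9 chr3:95465543-95465602, plus strand) read 2701 and 2741 in control and 2367 and 2459 with miR-26a, a log2 change of -0.17 (SE 0.07, limma adjusted p = 0.166). Probe A_51_P238786 (mm9 chr3:95466855-95466914, plus strand) read 14120 and 14960 against 13290 and 12170, a change of -0.19 (SE 0.10, limma adjusted p = 0.267). On neither probe did the groups overlap, and the 95% intervals were -0.34 to -0.01 and -0.43 to 0.05.

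Bcl2l1, the source of BCL-XL, had 2 probes. The first (A_55_P1974877, NM_009743, mm9 chr2:152606404-152606463, minus strand) read 13310 and 13460 in control and 12020 and 12170 with miR-26a, a change of -0.15 in each experiment (95% interval of the fit -0.33 to 0.04, limma adjusted p = 0.279). The other (A_52_P510877, mm9 chr2:152655185-152655244, minus strand) read 392.5 and 380.9 against 339.7 and 425.7 and overlapped between groups, with a change of -0.02 (95% interval -0.31 to 0.26). Bcl2 was measured by a probe whose annotation names NM_177410 and no other RefSeq transcript (A_51_P380013, mm9 chr1:108608970-108609029, minus strand). Whether it also reports other Bcl2 transcripts was not analysed here. This probe read 131.1 and 132 in control, 131.6 and 147.3 with miR-26a, and 152.7 and 126.9 with the sponge. Its change with miR-26a was 0.08 (95% interval -0.20 to 0.36).

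Position within the transcript could be read only in part, since exons and UTRs of mm9 were not analysed here. The hexamer AATAAA, known as a signal for cleavage and polyadenylation, was searched on the sense strand of each probe. It occurred in 3 of the 14 (Bmf, Bcl2l1 A_55_P1974877 and Bad A_55_P1962234) and in 10.1% of all probes. Bmf was called lower, and the 2 others were not called with miR-26a.

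The second comparison asked what changed when endogenous miR-26 was sequestered. No member probe was called with the sponge: 0 of 14 lower, beside 0% of all probes tested, and 0 of 14 higher, beside 0.00992% (2 probes). Without adjustment, limma's p was under 0.05 for 2 lower and 1 higher member probes, beside 1759 lower and 1488 higher among all probes. An unmoderated unpaired test of the 2 groups gave 4 member probes at that level, beside 1292 of all probes. A test of the 2 log ratios, which keeps the pairing of the experiments, gave 0 member probes, beside 1479 of all probes. After adjustment neither test left any probe. The median change of the 14 probes was 0.01, and that of all probes was 0.005.

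Bbc3 was the member probe with the highest change. It read 1066 and 1100 with the sponge, above both control arrays (906.2 and 856.7), with a log2 change of 0.30 (SE 0.08, 95% interval 0.11 to 0.48, limma adjusted p = 0.226). The 2 Bad probes had low changes. A_65_P16603 (NM_007522, mm9 chr19:7016918-7017403, plus strand, a span wider than the probe) read 705.9 and 717 in control and 567.4 and 601.4 with the sponge, a change of -0.28 (SE 0.07, limma adjusted p = 0.222). A_55_P1962234 (mm9 chr19:7026323-7026382, plus strand) read 7684 and 7450 against 6495 and 6611, a change of -0.21 (SE 0.07, limma adjusted p = 0.267). The sponge and control arrays did not overlap for these 3 probes, nor for Bcl2l1 A_52_P510877 and Mcl1 A_52_P93933, which makes 5 of 14, beside 37.7% of all probes tested.

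The genes called with miR-26a were measured in the sponge arrays as follows. Bmf read 736.2 and 1312, a change of -0.16 (95% interval -0.43 to 0.10), with -0.36 in experiment 1 and 0.03 in experiment 2. Bak1 read 8886 and 9613, a change of 0.04 (95% interval -0.14 to 0.22). Bax read 4996 and 4587, and its change was also 0.04 (95% interval -0.13 to 0.21). Both groups overlapped in each case. The Mcl1 probes read 2922 and 2920 (A_52_P93933, change 0.10, 95% interval -0.06 to 0.27) and 14010 and 16060 (A_51_P238786, change 0.05, 95% interval -0.19 to 0.28). The other member probes, those of Bcl2, Bcl2l1, Bcl2l11 and Pmaip1, had changes between -0.16 and 0.08, each with an interval that spans 0.

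**Figure D3:**
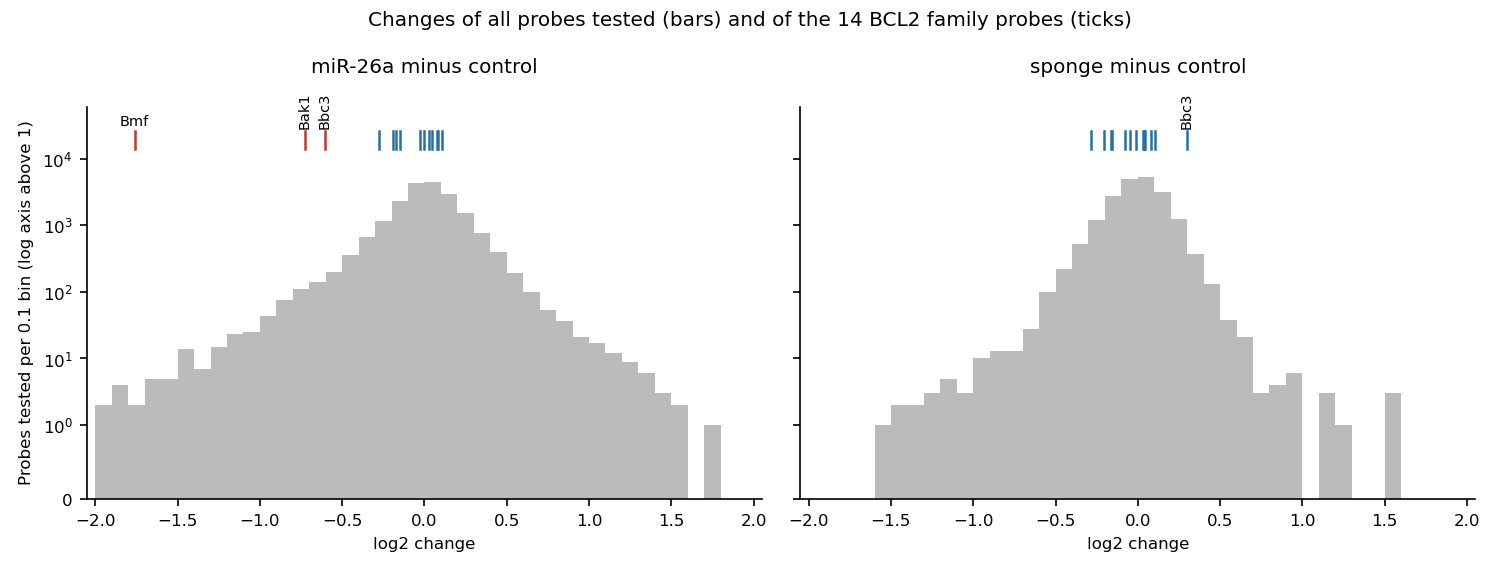
Distribution of the log2 changes (x axis) of all probes tested, counted per 0.1 bin (y axis, log scale above 1), with ticks for the 14 BCL2 family probes, red where called; changes beyond 2 in either direction are not drawn. With miR-26a the Bmf, Bak1 and Bbc3 ticks lie in the left tail, and with the sponge all 14 ticks lie between -0.28 and 0.30.

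The third comparison set miR-26a directly against the sponge and reuses the arrays of the other comparisons, so it is no separate evidence for them. Lower calls were made for 4 of the 14 probes, beside 8.49% of all probes tested, and higher calls for 2 of 14, beside 8.28%. The median change of the 14 was -0.07, and that of all probes was 0.02. The log2 change of Bmf was -1.60 (SE 0.11, limma adjusted p = 0.00257). That of Bbc3 was -0.90 (SE 0.08, limma adjusted p = 0.00365) and that of Bak1 was -0.77 (SE 0.07, limma adjusted p = 0.00442). For Bbc3 the signal with miR-26a was 53.4% of that with the sponge.

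The direct comparison added a survival gene and a BH3-only gene. Mcl1 probe A_52_P93933 was lower with miR-26a, with a log2 change of -0.28 (limma adjusted p = 0.045), while its second probe had a change of -0.24 that was not called (limma adjusted p = 0.145). Both Bad probes were higher with miR-26a than with the sponge. A_65_P16603 read 750.1 and 783.5 against 567.4 and 601.4, a log2 change of 0.39 (SE 0.07, limma adjusted p = 0.0186). A_55_P1962234 read 7850 and 8110 against 6495 and 6611, a change of 0.28 (SE 0.07, limma adjusted p = 0.0451). The Mcl1 call and both Bad calls were lost when any 1 of the 6 arrays was left out (adjusted p 0.108 to 0.168, 0.101 to 0.167 and 0.0522 to 0.102), while the changes ran from -0.30 to -0.25 for Mcl1, from 0.26 to 0.31 for Bad A_55_P1962234 and from 0.37 to 0.41 for Bad A_65_P16603. The call was lost for Bak1 without sponge replicate 2 (change -0.71, adjusted p = 0.0503), while those of Bmf and Bbc3 held in all 6 fits.

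The wider family and its partners were read from lists of genes named for their place in the pathway. The first list held 17 other genes of the BCL2 family or named as BCL2-interacting, such as Bnip2. Of these, 15 were on the array with 26 probes, of which 15 probes of 9 genes were tested. With miR-26a, 2 of these 15 probes were called lower and 0 higher, beside 5.14% and 4.5% of all probes tested. Bok, a relative of BAX and BAK, read 1011 and 929 in control and 609.9 and 608.9 with miR-26a, a log2 change of -0.67 (SE 0.08, limma adjusted p = 0.0107). Both miR-26a arrays were below the 4 others. Bnip2 was lower on 1 probe (A_55_P2137973, 131.7 and 117.7 in control against 102 and 88.86, change -0.39, limma adjusted p = 0.0267). Its brighter probe A_66_P100561 (18120 and 19140 against 16600 and 17280) had a change of -0.14 (limma adjusted p = 0.257). The median change of the 15 probes was -0.12.

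Downstream of the membrane, 18 of 19 probes for 14 genes of cytochrome c, the apoptosome, caspases, their inhibitors and the VDAC channels were tested. With miR-26a 1 of these 18 probes was called lower, which is near the 5.14% of all probes, and 0 higher, beside 4.5%. The called probe was that of Vdac1, a channel of the outer membrane, which read 32620 and 31440 in control and 26800 and 23550 with miR-26a (change -0.35, limma adjusted p = 0.0453). The list's median was 0.06. Among 12 probes of 8 genes whose products bind or turn over BCL2 family proteins, 0 were lower, beside 5.14% of all probes, and 2 higher, beside 4.5%. Both were probes of a single gene, Fbxw7, which encodes a ubiquitin ligase subunit known to mark MCL1 for degradation. Fbxw7 probe A_51_P506683 read 913.2 and 867.6 in control and 1284 and 1155 with miR-26a (change 0.45, SE 0.07, limma adjusted p = 0.0216), and A_55_P2176724 had a change of 0.48 (SE 0.09, limma adjusted p = 0.0289). The median of the 12 probes was 0.05.

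**Figure D4:**
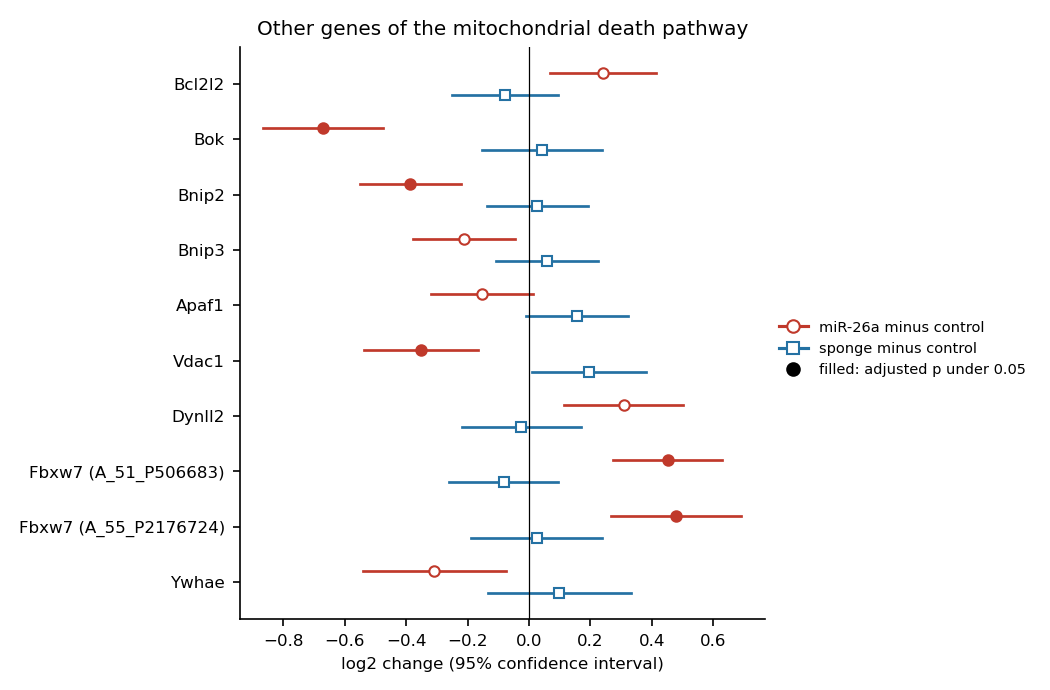
log2 change with its 95% confidence interval (x axis) for probes of other pathway genes that were called in any of the 3 comparisons; red circles are miR-26a minus control, blue squares sponge minus control, and filled symbols have an adjusted p under 0.05. Bok, Bnip2 and Vdac1 are lower and the 2 Fbxw7 probes higher with miR-26a, and no sponge symbol is filled.

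No probe of these 3 lists was called with the sponge against control, beside 2 (0.00992%) of all probes tested. With miR-26a against the sponge, lower calls were 3 of 15, 2 of 18 and 1 of 12 in the order of the lists. Of all probes 8.49% were called lower. Higher calls were 1 of 15, 0 of 18 and 3 of 12, beside 8.28% of all probes. Against the sponge, miR-26a gave calls for the same probes of Bok (-0.71), Bnip2 (-0.41), Vdac1 (-0.55) and Fbxw7 (0.53 and 0.46). Calls made in that comparison and not against control were Bcl2l2, a survival relative also named BCL-W (0.32), and Dynll2, a dynein light chain known to tether BMF (0.33 on 1 of 2 probes), both higher. Apaf1, the core of the apoptosome (-0.31), Ywhae, a 14-3-3 protein (-0.41), and 1 of 3 Bnip3 probes (-0.27) were lower.

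To see which probes had a pattern most like that of Bmf, the called member with the largest miR-26a change, the 6 centred log2 signals were compared with those of 15196 probes of annotated genes by Euclidean distance. The nearest were Rasl10a (distance 0.32), Slamf9 (0.43), Rpl3l (0.47), Trp53inp1 (0.54) and H2-Oa (0.55). Their changes with miR-26a ran from -1.64 (Slamf9) to -1.52 (H2-Oa), and with the sponge from -0.23 (Rasl10a) to 0.12 (Trp53inp1). The likeness describes 6 arrays of 1 cell line, and changes near those of Bmf follow from how these probes were chosen.

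Promoters were searched because 3 members were called lower with miR-26a and because FOXO factors, which AKT is known to inactivate, are known regulators of Bcl2l11 and Bbc3. RefSeq windows of 300 bases, from 250 before to 50 after each annotated gene start (GRCm38.p6), were available for 9 of the 10 members, in 17 windows. The forkhead letters GTAAACA, on either strand, occurred in 2 of these 17 windows and in 3.65% of 32851 windows. The 2 were Bcl2l11, at position -227 from the start, and Bbc3, at position -167, where the reverse complement is on the gene's strand. The stretches are printed with up to 40 bases on either side and with the match in capitals, both on the plus strand, at chr2:128125788-128125857 and chr7:16310054-16310140.
Bcl2l11 promoter: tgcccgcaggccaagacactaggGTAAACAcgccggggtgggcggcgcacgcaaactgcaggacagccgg
Bbc3 promoter: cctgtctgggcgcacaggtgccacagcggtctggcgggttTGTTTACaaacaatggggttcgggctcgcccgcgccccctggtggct
Of these genes Bbc3 was called lower with miR-26a and Bcl2l11 was not called, and the windows of Bmf and Bak1 did not hold these letters. The STAT letters TTCNNNGAA, which read the same on both strands, occurred in 0 of the 17 member windows and in 8.3% of all windows. A match is a run of letters in a window and was not tested for binding.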

How the data were processed

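Single-colour Agilent 8×60K arrays from 6 samples were used. The deposited scanner files hold linear signal intensity per spot, which the authors obtained with Agilent Feature Extraction (version 10.7.1.1 per the labels, 10.7.3.1 per the file headers) on a design annotated to mm9. The deposited table of the series holds quantile-normalized intensity on a linear scale and served as an alternative. Processed signals of the 59305 non-control spots were quantile-normalized, taken as log2 and averaged over unflagged spots of a probe. Printed signals are the normalized values returned to the linear scale, to 4 significant digits. A probe was tested (20168 were) if 1 or more arrays put it well above background and its processed signal passed 50 on 4 or more of the 6.

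All 6 arrays were fitted with limma (version 3.58.1) in R 4.3.3, with group and experiment as terms and Benjamini-Hochberg adjustment over all probes tested. The labels state separate experiments. Deviations from the group means were correlated between same-numbered arrays (0.38, 0.59 and 0.45 for the 3 pairs of groups), so the replicate number pairs the arrays and was kept as a block. All arrays were on 1 slide with 1 scan time. Experiment equals slide row, and group equals slide column, so these cannot be told apart. The number of arrays limits the precision. Members and lists were chosen with earlier results of these data known. Every member probe is named. Of the cell type markers, 2 are not reported here. Of the other pathway genes, those with a call in any comparison are named, at most 12. Likeness was measured to the called member probe with the largest miR-26a change. Alternatives covered the block, scaling, background correction, the authors' values, filters, array weights, flagged spots, other tests and leaving out each array.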

Additional observations from a re-analysis of the deposited data

How the results depend on the processing

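Of the 17 alternatives, 7 gave another estimate of each of the 9 called changes, and none of these turned its direction. The member calls with miR-26a against control (3 of 14) were 0 with no filter on low signal, 0 by the unmoderated unpaired test and 0 by the test of the 2 log ratios against 0, and 1 to 3 with 1 array left out. Against the sponge (6 of 14) they were 0, 0, 0 and 2 to 3. With no replicate block, which ignores the pairing of the experiments, the counts were 2 against control and 2 against the sponge, Bbc3 and Bak1 in each. Calls over all probes, 1944 and 3381, were 311 and 997 with no replicate block, 0 and 0 under the 3 alternatives above, and 104 to 1599 and 410 to 2436 with 1 array left out. The sponge gave 0 member calls against control in every alternative, beside 0 to 36 of all probes. The cause of these differences was not tested. No uncalled change became called, and 16 of 33 changed sign somewhere. Under normexp correction the values were 0.0077 (Bcl2l1 A_52_P510877) and 0.0057 (Bax) with miR-26a, 0.0027 (Bcl2l1 A_55_P1974877) and 0.0401 (Pmaip1) with the sponge and 0.0149 (Bcl2) between them. Under 75th percentile scaling they were 0.006 (Bax), 0.0329 (Bcl2l1 A_55_P1974877), -0.0077 (Bcl2l11 A_52_P348214), 0.0104 (Pmaip1) and 0.0031 (Bcl2, miR-26a minus sponge). With 1 array left out, changes with miR-26a ran from -0.0641 to 0.2268 (Bcl2), -0.2144 to 0.166 (Bcl2l1 A_52_P510877), -0.1679 to 0.256 (Bcl2l11 A_51_P484880), -0.0323 to 0.0243 (Bax) and -0.147 to 0.1982 (Pmaip1). With the sponge they ran from -0.0949 to 0.2581 (Bcl2), -0.1815 to 0.0259 and -0.1201 to 0.0278 (Bcl2l1 A_52_P510877 and A_55_P1974877), -0.0641 to 0.1547 (Mcl1 A_51_P238786), -0.3685 to 0.0554 and -0.1762 to 0.2369 (Bcl2l11 A_51_P484880 and A_52_P348214), -0.0202 to 0.1004 (Bak1) and -0.1565 to 0.1365 (Pmaip1). Between miR-26a and sponge they ran from -0.1768 to 0.1762 (Bcl2), -0.1366 to 0.2438 (Bcl2l1 A_52_P510877) and -0.137 to 0.2082 (Pmaip1). With 2 arrays a group, the sign of these 16 changes is not settled. The same holds for other uncalled changes whose 95% interval spans 0, such as Bmf with the sponge (-0.43 to 0.10).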
